A study of Rattus norvegicus with 4 samples.

Results

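The genes described here encode subunits of the receptors for GABA, glycine, glutamate and, among the nicotinic receptors, acetylcholine. They were taken by symbol, as every gene beginning with Gabr, Glra, Glrb, Gria, Grik, Chrn, Grin plus a digit or Grm plus a digit, with 30 or more UMIs over all spots. Of 32623 genes in the files, 63 matched these symbols and 41 of them reached 30 UMIs. The 41 genes comprised 12 GABA-A, 3 glycine, 3 AMPA, 4 kainate, 5 NMDA, 5 metabotropic glutamate and 9 nicotinic subunits or receptors. The other 22 stayed under 30 UMIs and are not described by value, with 4 of them (Gabrq, Chrnd, Chrna2 and Gabrr3) at 0.

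GABA-A, glycine, AMPA, kainate, NMDA and nicotinic receptors are channels that open when the transmitter binds, and each is built from several subunits, whose mixture sets where the receptor sits and how fast it works. Metabotropic glutamate receptors act through G proteins instead. The sensory neurons of the trigeminal ganglion have no dendrites and receive few synapses, but they carry such receptors on their cell bodies and terminals, whereas neurons of the brainstem, onto which the trigeminal root projects, are covered with synapses of these transmitters.

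The tissue came from adult male wild-type Sprague–Dawley rats and ran from the root of the trigeminal nerve through its ganglion to the start of the branches. It was packed to fit within the capture areas of a Visium slide, on which mRNA is captured by barcoded spots that can each cover several cells. TN1, TN2 and TN3 are the diseased side of 1 animal each, after unilateral mechanical compression of the trigeminal root, and HC is 1 area with tissue of 2 animals. The methods call the control animals sham-operated, whereas the series description takes HC from the healthy side of 2 of the 3 TN animals, so the TN and HC tissue may come from opposite sides of shared animals. The tissue label of HC also reads trigeminal neuralgia, while its description calls it a negative control, and it was used here as HC.

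The files held 6773 spots, between 1256 and 2013 for each area, and between 23546025 and 41335930 UMIs for each area. Spots were grouped by K-means clustering in which none of the receptor genes was used, and clusters were named from marker lists, so the regions rest on other genes of the same spots. The ganglion region (clusters 4 and 8) held 203, 365, 164 and 675 spots in TN1, TN2, TN3 and HC. The brainstem region (cluster 7) held 424 spots in TN1, 129 in TN2 and none in TN3 or HC, so it has no TN and HC comparison. All 5 central neuron markers (Gad1, Gad2, Slc32a1, Slc6a5 and Kcnc1) had UMIs in the brainstem region, with a summed level of 392.5 and 342 CPM (a gene's UMIs divided by the UMIs of its library, times 1000000) in TN1 and TN2 against 8.61 to 23.6 in the ganglion region. All 10 sensory neuron markers had UMIs in every ganglion library, at a sum of 6922 to 7991 CPM, against 775 to 1097 in the brainstem region. These lists were used to name the regions, so their high levels there follow from the naming. The brainstem region also held more astrocyte marker RNA, at 1827 and 2682 CPM with 7 of 7 markers detected, against 252 to 528 in the ganglion region with 6 or 7 detected. Its central myelin list, with 8 of 8 markers detected in both regions, summed to 1568 and 1060 CPM against 73.6 to 207. The part of these cells in the results below was not tested. In such spots, fewer cells of a type and less RNA per cell cannot be told apart.

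Most of the receptor genes tested between the brainstem and the ganglion region differed. Of the 41 genes, 24 had enough counts to be tested. Glra2 and Chrna1 had them only through libraries of the region where they are high. In the edgeR quasi-likelihood test on UMI sums of each region and area, with the area as a block and Benjamini-Hochberg adjustment at 0.05, 15 of the 24 were higher in the brainstem region and 4 were lower. Over all 11785 genes tested, 17.2% were higher and 17.0% were lower. All 3 tested AMPA genes, both tested glycine genes, both tested NMDA genes, 4 of 5 tested GABA-A genes and 2 of 4 tested metabotropic genes were higher in the brainstem region and 0 tested genes of these families were called lower. Of 4 tested nicotinic genes, 3 were higher in the ganglion region and 1 in the brainstem region, and the 4 kainate genes were divided between 1 higher, 1 lower and 2 not called. No difference between families was tested, and 17 of the 41 genes were too low to test, among them Grin3b of the NMDA family with 5 UMIs in the brainstem region against 56 in the ganglion region of TN1 and TN2. With no filter on low counts, 17 of 41 receptor genes were higher in the brainstem region (41.5%) and 6 were lower (14.6%). Over all genes in that fit, 10.4% were higher and 11.2% were lower. The median log2 difference of the 24 genes was 1.0, against 0.01 over all genes tested with the filter. Fitted log2 differences include TMM scaling, which added 0.25 to the log2 ratio of plain CPM on average. Their SE and p-values draw on the spread over all 20 region libraries, while the brainstem region was present in TN1 and TN2 only. With totals alone in place of TMM the median over all genes was −0.24, and the calls over all genes were 1301 higher and 3355 lower in place of 2022 and 2009, while 12 receptor genes stayed on the higher side and 4 on the lower.

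**Figure D1:**
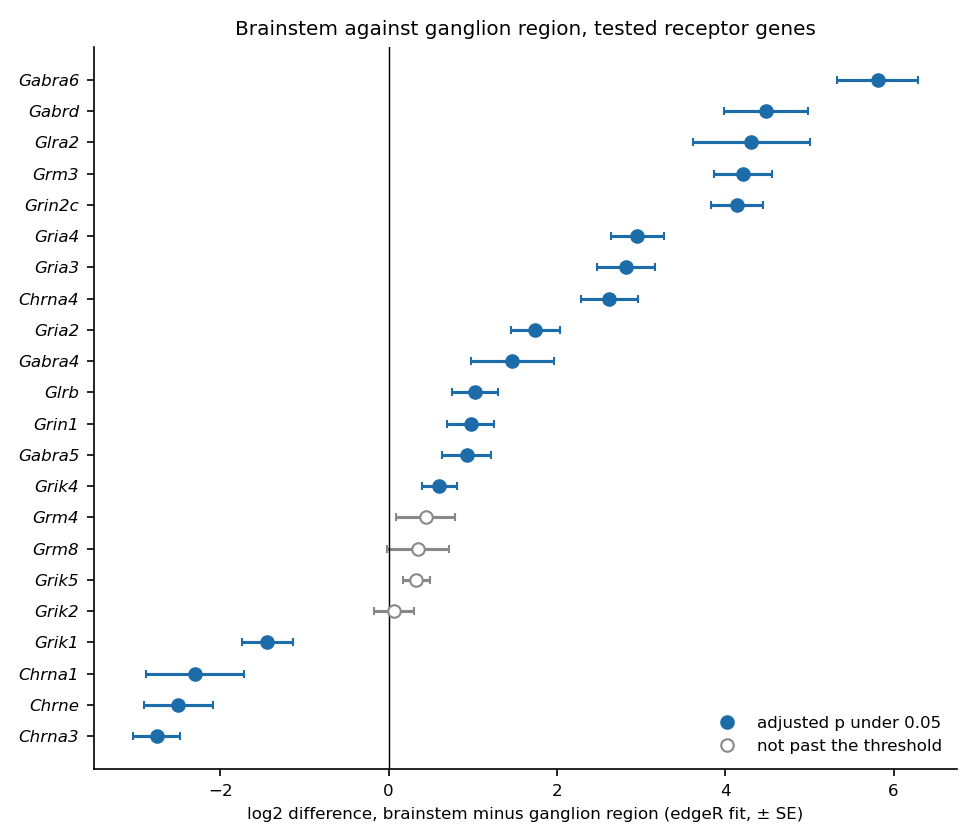
Fitted log2 difference between the brainstem and the ganglion region for 22 of the 24 tested receptor genes, as brainstem minus ganglion, with bars of ± 1 SE from the edgeR fit. The bars come from a fit over all regions and are not the spread between the brainstem areas. Filled points passed an adjusted p of 0.05. Gabra6 stands at the top with 5.81 and Chrna3 at the bottom with −2.76.

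Among the GABA-A genes, Gabrd and Gabra6 had the largest differences. Gabrd encodes the delta subunit, which is known from receptors outside the synapse. Its level was 9.53 and 49.1 CPM in the brainstem region of TN1 and TN2, and 0.423, 1.85, 1.75 and 3.55 CPM in the ganglion region of TN1, TN2, TN3 and HC. Both brainstem values lay above all ganglion values, although they differed from each other 5.15-fold, and the fitted log2 difference was 4.48 ± 0.50 (SE, adjusted p = 5.3e-07, edgeR). Gabra6 encodes the alpha6 subunit, known from the granule cells of the cerebellum and the cochlear nucleus. It reached 82.3 CPM in the brainstem region of TN2 but 0.883 CPM in that of TN1, and 0.106, 1.41, 0.146 and 0.191 CPM in the ganglion region of TN1, TN2, TN3 and HC. The fitted difference was 5.81 ± 0.48 (SE, adjusted p = 1.96e-08, edgeR). That SE comes from 1 fit over all regions and does not show the 93.3-fold difference between the brainstem values of TN2 and TN1. Without TN2 it was 4.25 and did not pass the threshold (adjusted p = 0.0519), on 5 UMIs in the brainstem region of TN1. Gabra4 and Gabra5 were also higher in the brainstem region (1.47 ± 0.49 and 0.93 ± 0.29, SE), but neither passed the threshold with DESeq2 or with totals alone.

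The glycine receptor genes were higher in the brainstem region, where glycine is a main inhibitory transmitter. Glrb encodes the beta subunit, which anchors the receptor at the synapse. It measured 236 and 222 CPM in the brainstem region and 134, 73.2, 132 and 182 CPM in the ganglion region of TN1, TN2, TN3 and HC. The ranges did not overlap, and the log2 difference was 1.03 ± 0.28 (SE, adjusted p = 0.00657, edgeR). It did not pass the threshold without TN1 (adjusted p = 0.0541) or without TN2 (adjusted p = 0.0933). The alpha2 subunit gene Glra2 was rare, with 20 and 18 UMIs in the brainstem region of TN1 and TN2, or 3.53 and 5.81 CPM, and 2 UMIs in each of the 4 ganglion libraries. Its log2 difference was 4.31 ± 0.69 (SE, adjusted p = 5.18e-05, edgeR). Only the brainstem libraries carried Glra2 over the filter on low counts, so it was tested only because it is high there. With the relative gate or without HC it was not tested. Glra1, which encodes the alpha1 subunit of adult glycine receptors, was too low to be tested, with 21 UMIs in the brainstem region against 3 in the ganglion region of the same 2 areas.

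The AMPA receptor genes, which encode the channels of fast excitation, moved together. Gria4 was at 71.0 and 80.1 CPM in the brainstem region, against 12.8, 6.33, 6.13 and 10.3 CPM in the ganglion region (log2 difference 2.96 ± 0.31, SE, adjusted p = 2.85e-07). Gria3 was at 54.2 and 78.1 CPM in the brainstem region, against 10.1, 6.90, 8.61 and 7.09 CPM (2.82 ± 0.34, SE, adjusted p = 1.88e-06). Gria2, whose subunit keeps the channel closed to calcium, was at 42.6 and 44.6 CPM against 17.1, 9.14, 16.8 and 18.8 CPM, with a smaller difference of 1.74 ± 0.30 (SE, adjusted p = 9.46e-05). No brainstem value of the 3 genes overlapped with a ganglion value. For these and the other genes described, the share of all genes separated in this way was not counted. Gria1 was among the genes under 30 UMIs.

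The kainate receptor genes did not share a direction. Grik1 was higher in the ganglion region, at 54.8, 27.2, 35.2 and 45.9 CPM against 23.0 and 4.52 CPM in the brainstem region (log2 difference −1.44 ± 0.30, SE, adjusted p = 0.000877, edgeR). It was higher in the ganglion region within both TN1 and TN2, by 2.39-fold and 6.02-fold. Grik4 was the only kainate gene called higher in the brainstem region (0.61 ± 0.21, SE, adjusted p = 0.0316), at 34.3 and 22.3 CPM against 23.5, 19.3, 17.8 and 25.1 CPM, so that its ranges overlapped. That call was lost with DESeq2, with totals alone, with the relative gate and without TN1. Grik5 and Grik2 were not called, with adjusted p of 0.126 and 0.872 in the edgeR fit.

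The obligatory NMDA subunit gene Grin1 measured 170 and 127 CPM in the brainstem region against 102, 56.0, 70.5 and 124 CPM in the ganglion region (log2 difference 0.97 ± 0.28, SE, adjusted p = 0.00901), and without TN2 it did not pass the threshold (0.54, adjusted p = 0.281). Grin2c, whose subunit is known from cerebellar granule cells and from astrocytes, stood further apart, at 36.0 and 54.9 CPM against 3.49, 2.68, 0.876 and 5.41 CPM (4.14 ± 0.31, SE, adjusted p = 3.89e-09). Among the metabotropic genes, Grm3, an inhibitory receptor known from neurons and glia, was at 38.8 and 15.8 CPM against 2.01, 0.895, 0.584 and 1.37 CPM (4.21 ± 0.34, SE, adjusted p = 1.15e-08). Grm4 and Grm8, which are inhibitory receptors of nerve endings, were measured in both regions and were not called (0.44 ± 0.35 and 0.35 ± 0.36, SE, adjusted p = 0.357 and 0.498).

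The nicotinic genes gave the strongest differences toward the ganglion. Chrna3 encodes the alpha3 subunit of the autonomic and sensory ganglion receptor. Its level was 71.9, 27.2, 54.0 and 67.0 CPM in the ganglion region of TN1, TN2, TN3 and HC, and 8.83 and 2.91 CPM in the brainstem region of TN1 and TN2. Every ganglion value lay above both brainstem values, and the log2 difference was −2.76 ± 0.28 (SE, adjusted p = 1.66e-07, edgeR). Chrnb4, the beta subunit gene that commonly partners with Chrna3, had 41 UMIs in the ganglion region of TN1 and TN2 and 0 in the brainstem region of the same areas, which is at least 4.77-fold lower when the limit of 3 counts over both brainstem libraries is used. Gabrr1, a rho subunit gene of GABA-A receptors, was likewise at 0 in the brainstem region against 32 UMIs, at least 3.72-fold lower. Chrne and Chrna1, which encode subunits of the muscle-type receptor, were also called higher in the ganglion region, Chrna1 through its TN values. Chrne was at 13.0, 30.8, 11.97 and 18.3 CPM against 1.59 and 3.87 CPM (−2.50 ± 0.41, SE, adjusted p = 7.54e-05). Chrna1 was at 5.28, 3.39, 3.94 and 0.572 CPM in the ganglion region. It was at 0.883 and 0.646 CPM in the brainstem region, on 7 UMIs in all. The HC value lay below both brainstem values, so only the TN ganglion values were higher. Its log2 difference was −2.29 ± 0.58 (SE, adjusted p = 0.0045, edgeR). The call was lost without TN1 (adjusted p = 0.159) and without the replicate block (adjusted p = 0.171). Only TN ganglion libraries carried Chrna1 over the filter on low counts, and it was not tested with the relative gate or without HC. Chrna4, the main alpha subunit gene of nicotinic receptors in the brain, was the exception, at 46.6 and 35.2 CPM in the brainstem region against 7.71, 4.86, 4.09 and 10.3 CPM (2.62 ± 0.34, SE, adjusted p = 3.61e-06). The RefSeq models of Chrne and Gp1ba overlap, as do those of Chrna4 and Col20a1, Grin1 and Lrrc26, Grm3 and Elapor2, and Chrnb1 and Zbtb4. Chrne and Grik1 each also overlap a further protein-coding gene without an established name, and other receptor genes overlap noncoding ones. Whether counting used the strand is not given in the sources used here, so reads of these genes may have been shared.

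**Figure D2:**
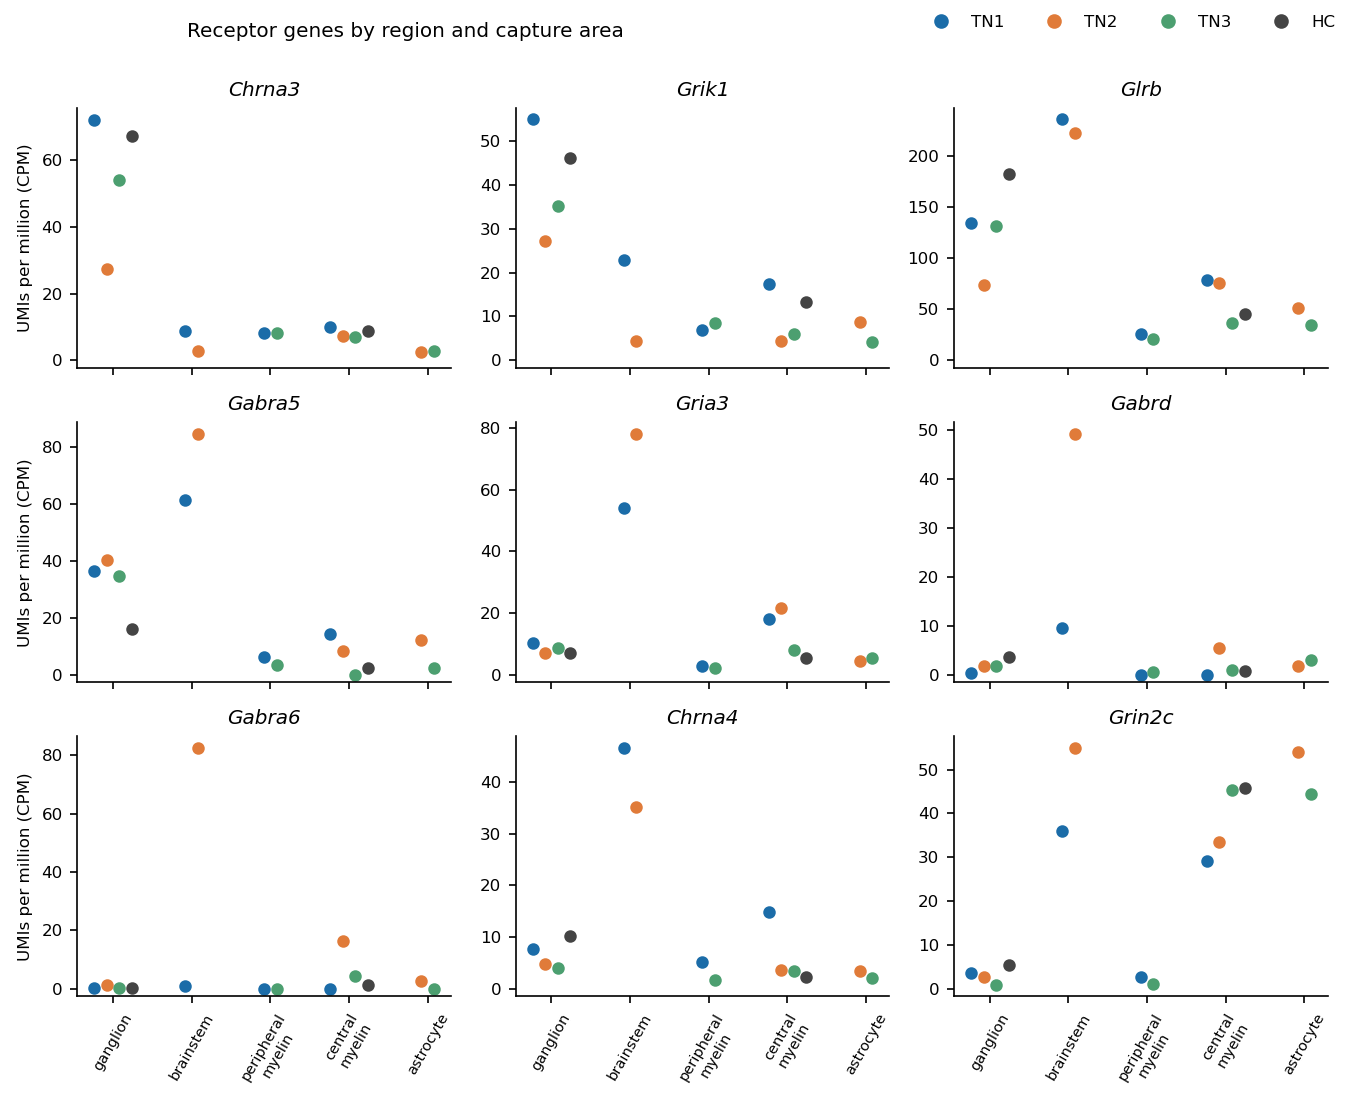
CPM (linear axis) of 9 receptor genes in 5 regions, with 1 point for each capture area that had 20 or more spots of the region. Chrna3 and Grik1 are highest in the ganglion region, Gria3 and Chrna4 in the brainstem region, the highest Gabra6 point is the brainstem region of TN2, and Grin2c is low only in the ganglion and peripheral myelin regions.

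Upstream sequences are shown for 4 genes whose patterns differed most: Chrna3 (ganglion), Chrna1 and Gabra5 (the lowest p between TN and HC below) and Gabra6 (brainstem of TN2). They are the 250 bases before the gene start in RefSeq, assembly GRCr8, written 5′ to 3′ in the direction of the gene. The build of the count files is not given in the sources used here. Capitals mark matches on either strand to 3 motifs: the E-box CAGCTG, the GC box GGGCGG and the AP-1 site TGANTCA.
Chrna3, chr8:64311252-64311501, minus strand: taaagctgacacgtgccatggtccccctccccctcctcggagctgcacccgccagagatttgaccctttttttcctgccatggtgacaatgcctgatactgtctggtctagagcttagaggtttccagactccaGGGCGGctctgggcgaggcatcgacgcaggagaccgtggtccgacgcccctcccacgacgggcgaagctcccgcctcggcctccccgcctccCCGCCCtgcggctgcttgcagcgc
Chrna1, chr3:78877354-78877603, minus strand: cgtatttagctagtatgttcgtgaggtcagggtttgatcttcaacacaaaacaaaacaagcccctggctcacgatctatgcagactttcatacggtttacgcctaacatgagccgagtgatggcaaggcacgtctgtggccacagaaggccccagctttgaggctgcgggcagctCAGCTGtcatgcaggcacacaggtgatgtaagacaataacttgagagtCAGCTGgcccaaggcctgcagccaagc
Gabra5, chr1:117516607-117516856, minus strand: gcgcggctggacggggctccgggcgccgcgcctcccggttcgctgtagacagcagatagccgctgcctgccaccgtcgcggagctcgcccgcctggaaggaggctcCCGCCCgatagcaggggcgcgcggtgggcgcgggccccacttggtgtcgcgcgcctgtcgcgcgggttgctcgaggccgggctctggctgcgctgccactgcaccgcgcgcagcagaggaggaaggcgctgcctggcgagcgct
Gabra6, chr10:27327235-27327484, minus strand: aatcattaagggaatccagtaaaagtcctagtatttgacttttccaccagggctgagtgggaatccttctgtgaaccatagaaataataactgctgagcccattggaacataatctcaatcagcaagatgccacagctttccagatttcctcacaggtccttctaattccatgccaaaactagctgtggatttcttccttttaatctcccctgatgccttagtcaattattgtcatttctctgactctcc
A 250-base sequence was found for 27 of the 41 genes. The E-box was present in 6 of the 27 (22.2%) against 12% of all 33469 promoters, the GC box in 13 (48.1%) against 30.5%, and the AP-1 site in 0 against 6.34%. Chrna1 held 2 E-boxes and no GC box, Chrna3 held 2 GC boxes, Gabra5 held 1 GC box, and Gabra6 held none of the 3 motifs. These matches describe the letters only.

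Both regions were also compared with the myelin region beside them. Against the peripheral myelin region, which had enough spots in TN1 and TN3, 15 of the 24 tested genes were higher in the ganglion region and 0 were lower, while 26.3% and 23.4% of all genes were higher and lower. Chrna3 had the largest called difference (2.72 ± 0.26, SE, adjusted p = 8.82e-08), with 8.27 and 8.21 CPM in the peripheral myelin region. Gabra5 followed (2.70 ± 0.39, SE, adjusted p = 1.14e-05), with 6.28 and 3.40 CPM there. Among the 9 genes that were not called were Gabra6, Gabrd, Glra2, Gria4, Grik2, Grin2c, Grm3 and Chrna4. A gate on raw marker sums, which puts most spots into the peripheral myelin region, gave 3 higher and 3 lower of 32 (9.38% each), near the 7.07% and 12.3% of all genes under that gate.

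Against the central myelin region, 16 of the 24 genes were higher in the brainstem region, where 21.4% of all genes were higher, and 1 was lower, where 15.0% were lower. With totals alone these were 15 and 1, and the calls over all genes were 2008 higher and 2284 lower in place of 2526 and 1771. The gene that was lower was Grik4 (−0.80 ± 0.23, SE, adjusted p = 0.00831, edgeR), at 55.0, 57.0, 42.8 and 55.8 CPM in the central myelin region of TN1, TN2, TN3 and HC, above both brainstem values and all 4 ganglion values. Grin2c overlapped with its brainstem values in the central myelin region (29.1, 33.5, 45.4 and 45.7 CPM) and the astrocyte region (53.9 and 44.5 CPM in TN2 and TN3), and was not called between brainstem and central myelin (0.48 ± 0.31, adjusted p = 0.24). Grm3 was not called there either (0.35 ± 0.33, SE, adjusted p = 0.45, edgeR), at 24.7, 29.8, 11.3 and 9.92 CPM in the central myelin region. Unlike Grin2c, Grm3 was low in the astrocyte region, at 2.88 to 4.35 CPM on 12 UMIs. The astrocyte list summed to between 4651 and 8622 CPM in the central myelin region, above the brainstem region. It was highest in the astrocyte region of TN2 and TN3, at 11142 and 11569 CPM. The part of this list in the levels of the 2 genes was not tested.

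Gabra6 lay in few spots of the brainstem region of TN2. Of its 255 UMIs there, 209 (82.0%) lay in the 13 richest of the 129 spots, and 1 spot held 56. For genes of similar count, the 13 richest spots of each held 25.3% (Gabra5, 261 UMIs), 31.0% (Gria3, 242 UMIs) and 29.0% (Gria4, 248 UMIs). Among genes with far fewer UMIs, where few spots can hold any, Grm8 had 75.0% of 20 UMIs in its 13 richest spots. The 13 spots were chosen by Gabra6, so its own level in them is no finding. Other genes are described in them with no test. Glra2 was at 34.8 CPM there (14 of its 18 UMIs) against 1.48 CPM in the other 116 spots. Grin2c was at 152 against 40.4 CPM. Cbln1, a secreted synaptic protein gene of cerebellar granule cells that is not a receptor, was at 581 against 128 CPM. Other non-receptor genes went both ways. Slc17a7 was at 748 against 577 CPM, Gad1 at 57.2 against 48.2 CPM and Gad2 at 27.3 against 13.4 CPM. Slc17a6 was at 84.5 against 153 CPM, Slc6a5 at 49.7 against 64.2 CPM and Slc32a1 at 54.7 against 56.8 CPM. Cbln3 had 4 UMIs in the 13 spots and 3 in the others. Gabrd was alike at 49.7 and 49.0 CPM, while Gabra5 was at 47.2 against 89.8 CPM and Chrna4 at 17.4 against 37.9 CPM. The median UMI count was 32927 in these spots and 22250 in the others.

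**Figure D3:**
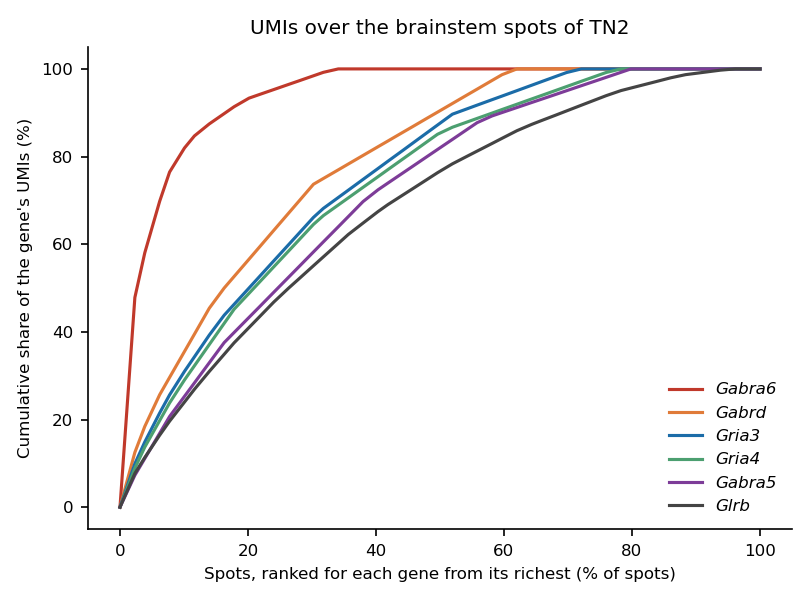
Cumulative share of each gene's UMIs over the 129 brainstem spots of TN2, ranked separately for each gene from its richest spot. The Gabra6 line reaches 82.0% at the 13 richest spots, while the lines of Gria3, Gria4 and Gabra5 stand at 31.0%, 29.0% and 25.3%.

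The study compared TN with HC, and in the edgeR fit of all 4 ganglion libraries no receptor gene was called between them. DESeq2 called 2 of 27 and edgeR without TN1 called 6 of 33, with the shares over all genes given below. The edgeR fit of all 4 libraries had 2 residual degrees of freedom, and HC, a single area, was assumed to vary like the TN areas. The p-values measure the spread between these areas only. Of 32 receptor genes tested, 0 passed an adjusted p of 0.05, as did 0 (0%) of all 12836 genes, while an unadjusted p under 0.05 was found for 2 receptor genes and for 9.21% of all genes. When the UMI sums were fitted with DESeq2, 2 of 27 receptor genes that received an adjusted p were called, as were 0.988% of all such genes. The TN areas lay all above HC for 4 receptor genes and all below HC for 14, against 33.0% and 24.4% of all genes, and on both sides for the other 14. The median log2 difference of the receptor genes was −0.34, against 0.03 for all genes. With cluster 4 alone as the ganglion region, the receptor genes tested there had a median of 0.003, against 0.026 for all genes. In the other repeats the receptor median stayed negative, from −0.64 without TN1 to −0.17 with the relative gate. The part of the clusters in this median was not tested. In the whole ganglion region, the median log2 ratio of a TN area to HC over the 32 receptor genes was lowest for TN2 (−0.47). It was −0.34 for TN3 and near 0 for TN1 (−0.05).

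Gabra5 and Chrna1 were the 2 genes with an unadjusted p under 0.05. Gabra5 encodes the alpha5 subunit, known from receptors outside the synapse. It measured 36.4, 40.2 and 34.4 CPM in TN1, TN2 and TN3 (37.0 ± 2.92, SD, n = 3) and 15.9 CPM in HC. The 3 TN values lay close together and above HC, and the log2 difference was 1.16 ± 0.21 (SE, adjusted p = 0.4 with edgeR and 0.0139 with DESeq2). Chrna1, the muscle-type alpha1 subunit gene, measured 5.28, 3.39 and 3.94 CPM in TN against 0.572 CPM in HC, on 50, 53, 27 and 15 UMIs. Its log2 difference was 2.79 ± 0.56 (SE, adjusted p = 0.47 with edgeR and 0.0177 with DESeq2). Over all alternatives, adjusted p ranged from 0.0139 to 0.957 for Gabra5 and from 0.0175 to 0.957 for Chrna1. Chrnb1, another muscle-type subunit gene, was above HC in all 3 areas on few counts (9, 8 and 2 UMIs against 4), with a log2 difference of 1.84 ± 1.08 (SE, adjusted p = 0.601, edgeR).

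Among the genes below HC in all 3 areas, Gabrd had the largest difference. It was at 0.423, 1.85 and 1.75 CPM against 3.55 CPM in HC (−1.45 ± 0.70, SE, adjusted p = 0.56). Grin2c was at 3.49, 2.68 and 0.876 CPM against 5.41 CPM (−1.23 ± 0.62, SE, adjusted p = 0.566). Grm4 was at 18.6, 6.65 and 12.8 CPM against 26.3 CPM (−1.12 ± 0.50, SE, adjusted p = 0.551). None of these 3 passed the threshold, and TN2 and TN3 lay further from HC than TN1 for Grm4. Without TN1, edgeR called 6 of 33 receptor genes and 734 of 12916 genes in all. Of the receptor genes 6.06% were higher in TN and 12.1% were lower, against 3.82% and 1.86% of all genes. The higher ones were Gabra5 and Chrna1 (adjusted p = 0.0173 and 0.0175, edgeR). Among the 4 lower were Grin1, Grm4 and Chrna4 (adjusted p = 0.0173, 0.0201 and 0.0485, edgeR). Without TN2 or without TN3 edgeR called 0 receptor genes.

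**Figure D4:**
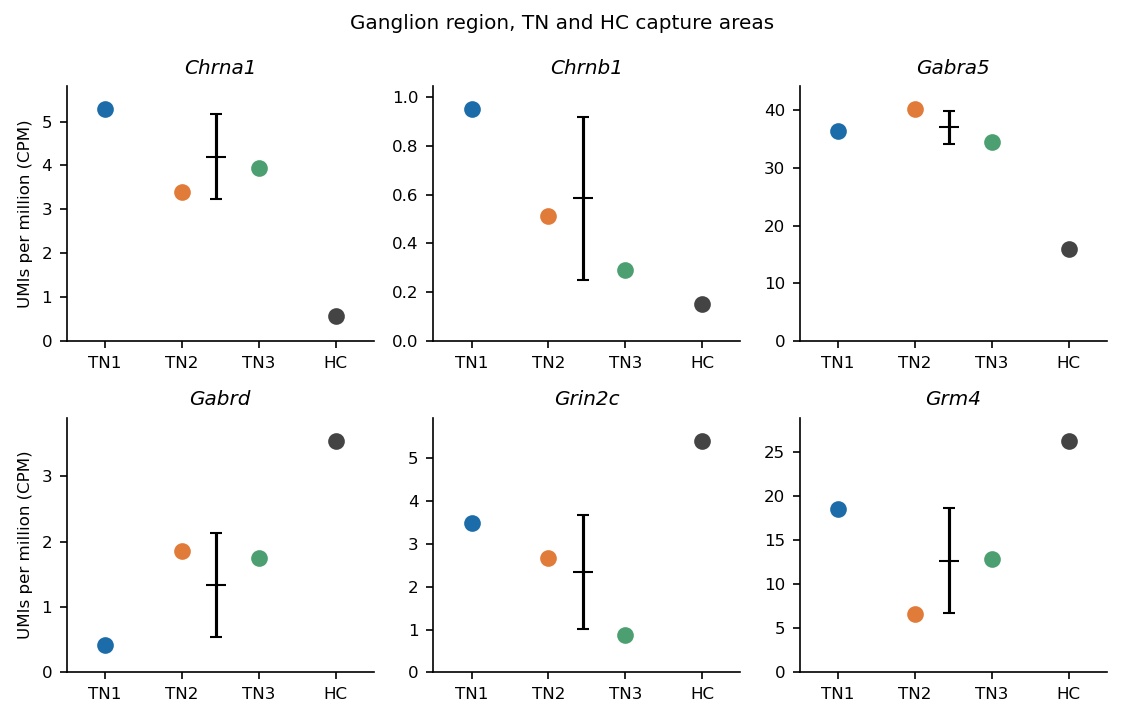
CPM (linear axis from 0) in the ganglion region of TN1, TN2, TN3 and HC for the 6 receptor genes furthest from HC with all TN areas on 1 side, where the black bar gives the TN mean ± SD (n = 3). Gabra5 lies at 34.4 to 40.2 in TN and 15.9 in HC, and Grm4 at 6.65 to 18.6 in TN and 26.3 in HC.

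Several marker lists stood on 1 side of HC in all TN areas of the ganglion region, and others did not. The nerve injury list (Atf3, Sox11, Sprr1a, Gal, Csrp3, Npy, Ecel1, Gap43 and Jun) summed to 1536, 2894 and 1628 CPM in TN1, TN2 and TN3 against 579 CPM in HC, with 9 of 9 genes detected in TN and 8 in HC. The macrophage list summed to 230, 562 and 376 CPM against 139 CPM, with 6 of 6 genes detected in every area. The astrocyte list was lower, at 252, 336 and 365 CPM against 528 CPM, as were the central myelin list, at 174, 91.5 and 73.6 CPM against 207 CPM, and the blood and bone list, at 410, 125 and 284 CPM against 489 CPM. The peripheral myelin list was lower too, at 10618, 15060 and 13765 CPM against 15389 CPM. The satellite glia list was at 572, 499 and 580 CPM against 489 CPM. The connective tissue list was at 1085, 3340 and 2523 CPM against 1084 CPM and the sensory neuron list at 7991, 7328 and 6922 CPM against 7985 CPM, so that TN1 stood beside HC in both. Grin2c, which was below HC in all TN areas, is among the genes with high levels in the astrocyte and central myelin regions. The part of these lists in the receptor values was not tested. For the muscle-type genes Chrna1 and Chrnb1, a skeletal muscle list added after the values were seen, of which 6 genes were in the files and 1 to 5 were detected in a ganglion library, summed to 2.32, 5.50 and 2.48 CPM in TN and 2.14 CPM in HC.

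The ganglion region was also unlike in makeup, since cluster 8, led by Csrp3, Gal, Reg3b and Vip, held 53, 325 and 68 spots of TN1, TN2 and TN3 and 0 of HC. Cluster 4 held 150, 40, 96 and 675. Gabra5 was higher in TN than in HC in cluster 4 alone, at 31.3, 35.8 and 29.4 CPM against 15.9 CPM, and stood at 50.5, 40.99 and 43.3 CPM in cluster 8. Chrna1 in cluster 4 was at 4.04, 0.417 and 2.51 CPM (28, 1 and 11 UMIs) against 0.572 CPM (15 UMIs), so that TN2 did not exceed HC, and it was at 8.67, 3.93 and 6.48 CPM in cluster 8. Chrna3 was lower in cluster 8 than in cluster 4 within each TN area, at 87.0, 80.8 and 66.4 CPM in cluster 4 of TN against 67.0 CPM in HC, and at 30.7, 17.5 and 32.0 CPM in cluster 8. Grm4 was at 20.8, 16.7 and 16.0 CPM in cluster 4 and 12.6, 4.83 and 7.29 CPM in cluster 8. The 2 clusters were made from the same spots, so these are values with no test.

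Proteins that work beside these receptors were counted from 3 lists. Between the brainstem and the ganglion region, 5 of 9 tested inhibitory partners were higher in the brainstem region and 0 were lower in the edgeR fit, against 17.2% and 17.0% of all genes. Of 15 tested glutamate partners, 8 were higher and 1 was lower. Slc1a2, the main glutamate transporter of astrocytes and itself on the astrocyte list that was used to name regions, had the largest difference upward (4.61 ± 0.52, SE). It was low, at 11.3 and 4.20 CPM in the brainstem region of TN1 and TN2 (64 and 13 UMIs). In the astrocyte region of TN2 and TN3 it had only 2 and 1 UMIs (1.74 and 0.412 CPM). The gene that was lower was Cacng3, which encodes an AMPA receptor auxiliary protein (10.2 and 3.55 CPM against 22.5 to 34.7 CPM, −1.75 ± 0.28, SE, adjusted p = 6.18e-05). Of 8 tested acetylcholine partners, Ly6h, a modulator of nicotinic receptors, was higher (2.66 ± 0.31, SE, adjusted p = 1.19e-06) and Rapsn, which clusters muscle-type receptors, was lower (−1.21 ± 0.35, SE, adjusted p = 0.00964), which as 1 of 8 in each direction is near the share over all genes. Between TN and HC, edgeR called 0 of the 10, 17 and 9 partners tested.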

How the data were processed

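Spatial expression was measured on 4 Visium areas (TN1, TN2, TN3, HC). The authors deposited UMI counts per gene and spot, as whole numbers without normalization, made with Space Ranger 1.2.0 per the file headers. For the genome build, the annotation and any equalizing of depth between areas, no source used here gives a statement. Spots were assigned to areas by barcode suffix, in the order the series description gives. Of 3573 barcode sequences, 2337 occurred in 2 or more areas, since areas share slide positions.

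SCTransform (sctransform 0.4.2, Seurat 5.3.0) on 16040 genes without the receptor genes, with 3000 variable genes, was followed by K-means into 10 clusters (50 starts) on 30 principal components. Clusters were named by marker lists, where the highest list score led by 0.25 or more, and otherwise left unnamed. Spots can hold several cell types, and no doublet caller was run. Had the receptor genes been kept, 13 would have been among the variable genes. UMIs were summed per region and area with 20 or more spots (20 libraries) and tested by the quasi-likelihood method of edgeR 4.0.16 in R 4.3.3, after filterByExpr and TMM, with Benjamini-Hochberg adjustment at 0.05 and 10 residual degrees of freedom for regions. The area was a block there, because regions of 1 area are the same tissue and library. DESeq2 1.42.0 was an alternative. CPM is a gene's share of the UMIs of its library, times 1000000. The steps were tested on simulated data. UMIs lie near the 3′ end, so levels are compared within a gene only.

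Named genes were, in each of the 7 families, the 2 called genes with the largest difference in each direction between brainstem and ganglion region, and, between TN and HC, every called gene and the 3 with the largest difference in each direction with all TN areas on 1 side. Of each partner list, the largest called difference in each direction was named. Genes that these rules also gave but that the text does not name are not reported here. Other genes named with values (Gabra4, Gria2, Grik2, Grik5, Grm8, Glra1, Chrnb4, Gabrr1, Cbln1, and those in clusters and rich spots) were chosen after their values were seen. Members and lists were chosen with earlier results of these data known.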

Additional observations from a re-analysis of the deposited data

How the results depend on the processing

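For the genes named by the rule, 226 of 238 repeats of brainstem against ganglion and 76 of 81 of TN against HC kept their direction and side of the threshold, 12 of the first lost the call, 5 of the second gained it, and none reversed. Between TN and HC in the ganglion region, receptor genes called rose from 0 to 2 with DESeq2, and genes called from 0 to 117 with DESeq2, 21 with no filter on low counts, 25 with the relative gate and 5 with cluster 4 alone. Leaving out 1 TN area gave 0 to 6 receptor genes and 0 to 734 genes. The gate on summed marker counts gave 6 receptor genes and 2438 genes in place of 15 and 5856 for ganglion against peripheral myelin, and formed no brainstem region, so the brainstem comparisons could not be made with it. Leaving out 1 area gave 3321 to 6138 genes there and 2570 to 3561 for brainstem against central myelin, where 2481 in place of 4297 were called in a fit of the 2 regions only with the replicate block. The causes were not tested. Without the replicate block, 13 in place of 19 receptor genes were called between brainstem and ganglion, and Gabra5, Gabra4, Grin1, Chrna1, Grik4 and Grik1 lost the call. The limit of 500 genes and 1000 UMIs removed no ganglion spot, so its repeats of TN against HC were identical to the main fit. They are counted among the 81 and could not differ. Repeats in which a gene was not tested are not counted, so that Chrnb1 had 10 between TN and HC and Gabra5 had 15. No paired analysis of TN against HC was possible, because HC is 1 area with tissue of 2 animals. The relative gate, totals alone, cluster 4 alone and clusters 4, 5 and 8 were chosen after seeing the data. Depth limited 17 receptor genes, which were too low to test between brainstem and ganglion.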

Other observations

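Cluster 5 was left unnamed, since sensory neuron and peripheral myelin markers stood alike in it, and entered none of the main comparisons. The repeats on clusters 4, 5 and 8 took it into the ganglion region. There, 15 of 24 receptor genes were higher in the brainstem region and 4 were lower, against 17.8% and 17.5% of all genes. HC had 369 spots of cluster 5, TN3 had 272, TN1 had 167 and TN2 had 31. Gabra5 measured 24.6, 20.01 and 15.6 CPM in cluster 5 of TN1, TN2 and TN3 and 12.2 CPM in that of HC. Chrna1 measured 4.36, 2.35 and 3.31 CPM in TN, on 11, 2 and 14 UMIs, and 0.874 CPM in HC, on 5 UMIs. Grm4 measured 19.4, 3.53 and 11.8 CPM in TN and 18.2 CPM in HC, so that TN1 lay above HC, unlike in the ganglion region. These are values with no test.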
